A study of Mus musculus with 6 samples.

Results

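In the H3K27me3 CUT&Tag data from mouse granulosa cells (GCs), 364 of the 12430 merged peak regions were repeat-rich or lay on contigs. H3K27me3 is the tri-methylation of histone H3 lysine 27, and CUT&Tag maps it by tethering a transposase to the antibody-bound mark. Peak intervals were merged within each library and then across the 6 libraries, and a region was kept when it was called in at least 2 libraries and either had 50% or more soft-masked bases in GRCm38 or lay on an unplaced or unlocalized contig. Soft-masked bases are those that the genome assembly marks as repeats. Of the 364 regions, 339 lay on chromosomes and 25 on contigs. The other 4263 regions called in at least 2 libraries serve as the comparison. A further 1551 repeat-rich or contig regions were called in 1 library and are not described.

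The study compared GCs of PBS-treated mice with GCs of mice given a single intraperitoneal injection of cyclophosphamide (CTX), an alkylating chemotherapy drug, both collected at 6 h. The animals were 3-week-old ICR females primed with gonadotropin (PMSG), and the GCs of 3 mice were pooled for each sample. Each group had 3 libraries, given as separate biological replicates. The peak lists hold no gene expression, so GC identity was not checked here.

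Repeats make up a large part of the mouse genome. Telomeres, which cap the chromosomes, are arrays of the hexamer TTAGGG, and older copies of this hexamer also lie inside chromosome arms. Major satellite, an AT-rich tandem repeat, forms the pericentromeric heterochromatin, which is best known for carrying H3K9me3 and HP1. H3K27me3 is deposited by Polycomb repressive complex 2, whose catalytic subunit is EZH2, and is best known from the CpG-rich promoters of silent developmental genes.

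The sequences that the results turn on are shown first, with bases counted in GRCm38 and read from the RefSeq copy of that build. The first is a pentamer array from a region called in 3 CTX and 0 PBS libraries, in which capitals mark whole copies of the pentamer GCTGT.
Intron of Jazf1, chr6:53049538-53049717, plus strand: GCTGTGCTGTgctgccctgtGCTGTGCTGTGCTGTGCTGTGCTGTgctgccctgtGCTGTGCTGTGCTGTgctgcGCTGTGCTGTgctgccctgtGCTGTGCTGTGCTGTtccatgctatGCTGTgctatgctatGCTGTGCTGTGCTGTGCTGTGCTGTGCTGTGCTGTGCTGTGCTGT

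Another 36 regions formed a family by sequence similarity. Their period was taken as the shortest shift at which a sequence matched itself about as well as at its best shift. It was within 1 bp of 234 bp, the unit length of mouse major satellite, in 8 regions, of 117 bp in 8 and of 58 bp in 13. Long shifts were not tried in narrow regions. A region of the family's median width, 392.5 bp, could not give 234 bp, so these counts depend on width. The family is shown by 1 unit from the cluster at the start of chromosome 9, followed by copies from chromosome 14 and from contig JH584304, in which capitals mark the bases that are identical to the chromosome 9 unit. The copies were 88.2% and 94.9% identical to it, and over the 35 remaining members of the family the best aligned stretch was a median 93.2% identical (range 80.7% to 97.7%).
Chromosome 9 unit, chr9:3015203-3015436, plus strand: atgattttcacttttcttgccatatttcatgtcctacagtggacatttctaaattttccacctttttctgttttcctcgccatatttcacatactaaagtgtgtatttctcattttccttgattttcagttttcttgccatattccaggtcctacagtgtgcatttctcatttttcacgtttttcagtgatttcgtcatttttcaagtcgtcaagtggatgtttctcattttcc
Chromosome 14 copy, chr14:19418680-19418914, minus strand: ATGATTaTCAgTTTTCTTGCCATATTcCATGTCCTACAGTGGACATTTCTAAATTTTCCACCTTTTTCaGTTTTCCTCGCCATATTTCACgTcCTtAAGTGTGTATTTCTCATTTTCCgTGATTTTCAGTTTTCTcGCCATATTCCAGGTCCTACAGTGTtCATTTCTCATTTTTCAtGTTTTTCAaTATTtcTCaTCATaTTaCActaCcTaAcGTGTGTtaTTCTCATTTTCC
Contig copy, chrUn_JH584304:103311-103544, plus strand: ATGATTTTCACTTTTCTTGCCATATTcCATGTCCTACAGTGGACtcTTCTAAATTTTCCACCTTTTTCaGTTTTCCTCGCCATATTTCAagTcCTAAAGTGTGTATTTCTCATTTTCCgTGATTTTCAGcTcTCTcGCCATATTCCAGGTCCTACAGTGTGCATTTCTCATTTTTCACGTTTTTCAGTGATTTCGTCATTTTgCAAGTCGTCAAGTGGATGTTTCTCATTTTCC

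The members fell into kinds by sequence, which were drawn up after the sequences had been seen. There were 46 telomere-hexamer regions, in which the motif (TTAGGG on either strand) covered 20% or more of the bases, and 11 of the 4263 other regions met the same criterion. In 32 regions the pentamer GCTGT, on either strand, covered 20% or more, against 2 of the other regions. This satellite family held 36 regions and the 5S ribosomal RNA gene cluster on chromosome 8 held 19. The remaining regions were 61 other short tandem repeats with a period of at most 12 bp, 57 tandem repeats with a longer period, 98 regions of other soft-masked sequence and 15 on contigs for which no sequence was used here.

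The members differed from the other regions in many properties that the rule did not use, and these are descriptions over regions, which are not replicates. Their median width was 383 bp (interquartile range 298.5 to 491.5), against 594 bp (391 to 955). Median GC content was 48.5%, against 55.7%. Of the members, 48.4% were intergenic, 25.8% intronic, 24.5% within 2000 bp of a transcription start and 1.37% exonic, while 66.7% of the other regions lay at a transcription start. The members were thus narrower, poorer in GC and mostly away from promoters.

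Uniqueness in the genome was measured as the number of places in GRCm38 where each 31-base word of a region occurs. The median word was single-copy in 151 of the 349 members with a sequence (43.3%), against 96.4% of the other regions, and occurred 10 or more times in 108 members (30.9%), against 0.446%. In the telomere-hexamer regions at chromosome ends the median word occurred 1835 times, in the 5S cluster 49 times and in the satellite family 7.75 times. The deposited peaks rest on reads that the authors had filtered for unique mapping.

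Fold enrichment (column 7 of the peak lists, pileup plus 1 over local background plus 1) had a higher median in the members. The highest value in a region, averaged over the libraries that called it, had a median of 5.60 (range 2.59 to 31.8) in the members and 3.55 in the other regions. By kind the median was 10.2 in telomere-hexamer regions, 6.33 in the satellite family, 5.94 in pentamer regions, 4.82 in the 5S cluster and 4.28 in other soft-masked sequence. Telomere-hexamer regions at chromosome ends had the highest median of the kinds examined, 20.6 over 11 regions. In every library, however, the members had fewer median summit reads than the other regions, over a lower local background. In PBS replicate 1 the summit reads were 18 in members and 36 in other regions, and the background 1.52 and 9.64. In CTX replicate 3 the summit reads were 19 and 22, and the background 1.24 and 4.82.

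The promoter windows of 119 annotated genes overlapped a member. Of these genes, 51 were small RNA genes, 45 protein-coding, 12 pseudogenes and 11 long noncoding, and 33 of the small RNA genes were 5S rRNA genes. By gene family there were 0 developmental transcription factor genes (such as Hox, Pax and Sox), 0 zinc-finger genes of the Zfp, Zkscan and Zscan series and 0 of the ampliconic germline families. The olfactory and vomeronasal receptor families gave 1, the pseudogene Vmn1r-ps47.

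Members gathered near chromosome ends. Of the 339 on chromosomes, 29 (8.55%) lay within 1 Mb of the last assembled base and 18 (5.31%) within 1 Mb of the first, against 49 (1.15%) and 27 (0.634%) of the 4256 other regions on nuclear chromosomes. Each such window makes up 0.793% of the chromosome bases. Neither comparison allows for where soft-masked sequence, which the rule selects, lies along the chromosomes. Mouse chromosomes are telocentric, so that the first assembled bases lie next to the centromere and the last next to the distal telomere.

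**Figure D1:**
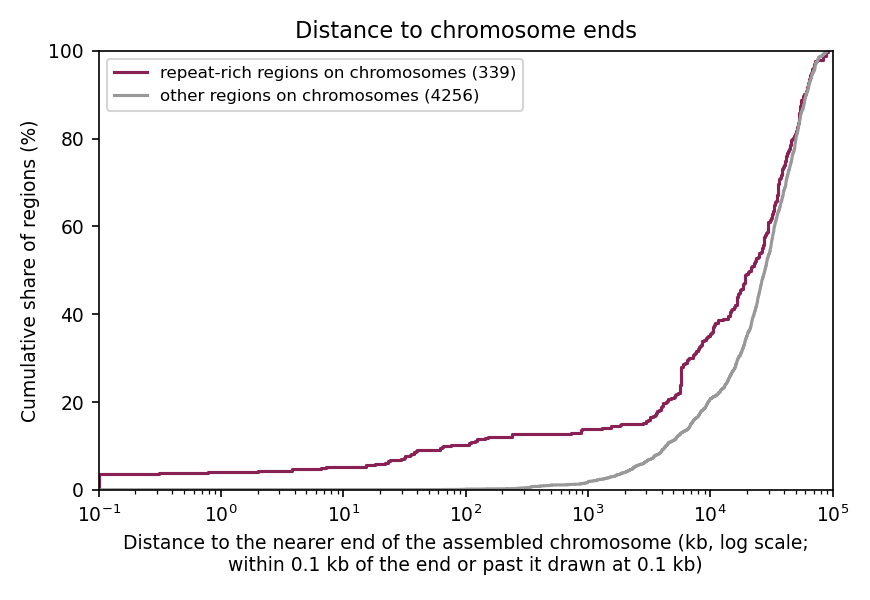
Cumulative share of regions (%) by distance to the nearer end of the assembled chromosome (kb, log scale), with 1 line for the 339 repeat-rich regions on chromosomes and 1 for the other regions on nuclear chromosomes. The line of repeat-rich regions starts above 0 because some of them lie at the last assembled base, and it stays above the line of the other regions over most of the range.

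At 11 of the 21 chromosomes a telomere-hexamer member lay within 10 kb of the last assembled base, each with the G-rich strand, TTAGGG, read towards the end. A further member near a chromosome end held no such array. The chromosomes were 2, 3, 7, 10, 12, 13, 14, 16, 17, 19 and X. Fold enrichment at the end of chromosome 12 (chr12:120028603-120029044, intergenic) was 32.1, 32.8 and 33.1 in the PBS libraries and 27.3, 34.4 and 28.3 in the CTX libraries. At the end of chromosome 10 (chr10:130594703-130595091, in the promoter window of the ferritin pseudogene Ftl1-ps2) it was 31.5, 28.7 and 28.2 with PBS and 34.3, 32.6 and 30.4 with CTX. The ranges of the groups overlapped at both ends. Of the 11 end regions, 8 were called in 6 libraries, and the end of chromosome 7 (chr7:145341288-145341560) in 2, both CTX, at 6.06 and 5.28.

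Inside the chromosome arms there were 35 further telomere-hexamer regions. An array on chromosome 4 (chr4:153152943-153153310, intergenic) had the highest mean fold enrichment of all members called in 6 libraries, with 35.3, 22.6 and 29.2 in the PBS libraries and 37.6, 35.3 and 30.6 in the CTX libraries. An array in the promoter window of Phf21a (chr2:92093540-92093876), whose product is a subunit of a histone demethylase complex, gave 19.7, 21.3 and 22.7 with PBS and 22.6, 22.8 and 22.4 with CTX. An array on chromosome 8 (chr8:83756677-83757086, intergenic) gave 29.8, 21.97 and 24.6 with PBS and 30.3, 27.8 and 25.3 with CTX. Fold enrichment thus overlapped between the groups at each of these arrays.

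The 10 members called in 6 libraries with the highest mean fold enrichment comprised 8 telomere-hexamer regions and 2 of the satellite family. The satellite regions were chr12:3109772-3110209, close to the start of chromosome 12, and chr9:35305141-35305679, in the promoter window of Gm33838. The 3 telomere-hexamer regions among the 10 whose values are not given above lay at the ends of chromosomes 14, 16 and X and had mean fold enrichments of 28.4, 26.3 and 23.8.

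Tandem self-identity, the share of bases that equal the base 1 repeat period away, had a median of 63.8% in the members and 32.0% in the other regions. The 4 highest values were 100% at the end of chromosome 7, 96.4% at chr6:140692597-140692961, 96.3% at chr14:6637067-6637484 and 96.1% at the end of chromosome 12. In the chromosome 6 array the median 31-base word occurred 1108752 times in the genome.

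The members formed 16 clusters of 3 or more, with gaps of at most 100 kb, which held 92 members. The cluster with the most members was that of the 5S rRNA genes (chr8:123540444-123623466), with 19, of which 11 were called in 6 libraries. The 5S rRNA is a component of the large ribosomal subunit that RNA polymerase III transcribes. The satellite cluster at the first assembled bases of chromosome 9 (chr9:3000016-3038254) had 12 members, 10 of them called in 6 libraries, and the one on contig JH584304 had 9, of which 5 were called in 6 libraries.

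Members were also dense at the distal ends of the sex chromosomes. Chromosome X held 34 members (9.34%), against 1.22% of the other regions, and 9 of them lay in a stretch of 153395 bp that reaches the end of the assembled sequence (chrX:170727988-170881382). A cluster of 3 lay in Mid1 (chrX:169993361-170005725), the gene that spans the boundary of the mouse pseudoautosomal region. Chromosome Y held 5 members although the animals were female, 4 of them in chrY:90724784-90813306. A 31-bp unit recurred in the X cluster and is shown here from its member chrX:170841348-170842065, with alternate units in capitals.
Distal chromosome X, chrX:170841658-170841781, plus strand: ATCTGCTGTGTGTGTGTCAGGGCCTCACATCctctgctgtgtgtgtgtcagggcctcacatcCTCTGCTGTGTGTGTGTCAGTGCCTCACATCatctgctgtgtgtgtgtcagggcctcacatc

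To determine how CTX treatment bore on these regions, the calls were first compared by library. A member was called in 283, 200 and 195 cases in the PBS libraries and in 256, 264 and 184 in the CTX libraries. The means were 226 ± 49.4 (SD, n = 3) and 235 ± 44.1 (SD, n = 3), and the difference of 8.67 gave p = 1.0 by a two-sided exact permutation test, in which 3 against 3 libraries cannot go below 0.1. The groups overlapped fully. In the other regions the share called was 86.5%, 63.5% and 82.1% with PBS and 51.9%, 66.2% and 35.6% with CTX.

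The calls compared here also decided which regions were kept, in members and other regions alike, so that tests on calls are not independent of the rule. The members' own rate was close between the groups, 62.1 ± 13.6% (SD, n = 3) with PBS and 64.5 ± 12.1% (SD, n = 3) with CTX, while that of the other regions was 77.4 ± 12.2% and 51.2 ± 15.3%. The percent of members called minus the percent of other regions called was -8.79, -8.55 and -28.5 percentage points in the PBS libraries and 18.5, 6.28 and 14.9 in the CTX libraries. Every CTX library lay above every PBS library, with a difference of 28.5 points. The share of a library's peaks that lay in members behaved alike, with 4.61%, 4.88% and 3.83% for PBS and 6.19%, 5.47% and 6.41% for CTX. Here too the groups did not overlap, with a difference of 1.58 points (exact permutation p = 0.1, or 0.25 after Benjamini-Hochberg adjustment over the 5 values tested per library). The total number of peaks also differed between libraries, from 4244 to 6378 with PBS and from 2916 to 4993 with CTX, and depth ranged from 1118 to 1957 reads per Mb. With the 2916 best peaks of each library taken, the first difference was 28.7 points, and that in the share of peaks was 1.22 points with an exact permutation p of 0.2, so that the groups no longer separated.

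Median peak width and fold enrichment overlapped between the groups. The median width of a library's peaks in members was 305, 277 and 298 bp with PBS and 292, 290 and 293 bp with CTX (difference -1.67 bp, exact permutation p = 1.0). Median fold enrichment over the members called was 5.75, 5.71 and 5.96 with PBS and 6.34, 5.89 and 6.47 with CTX (difference 0.425, exact permutation p = 0.2, adjusted 0.333), and the ranges overlapped. The difference in fold enrichment had the smallest possible p, 0.1, under 5 other settings, with values from 0.450 to 0.768, and turned to -0.151 with equal peak numbers.

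The members called in 3 libraries of 1 group and in 0 of the other were few. There were 5 called in 3 CTX and 0 PBS libraries, or 1.37% of members, where the rate over all 4627 regions called in at least 2 libraries was 0.238% (11 regions). In the opposite direction 2 members, 0.549%, were called in 3 PBS and 0 CTX libraries, where the rate over all regions was 4.41% (204 regions). Members thus made up 5 of the 11 regions of the first class and 2 of the 204 of the second.

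The 5 regions called in 3 CTX and 0 PBS libraries were all arrays, 3 of the telomere hexamer and 2 of the pentamer. The hexamer arrays lay in introns of Pde7b (chr10:20459730-20459988), which encodes a cAMP phosphodiesterase, and of Lrp1b (chr2:41896103-41896369), a member of the LDL receptor family, and in intergenic sequence near 4930558G05Rik (chrX:129056471-129056744). The pentamer arrays lay in introns of the transcription factor gene Ebf2 (chr14:67289508-67289983) and of the zinc-finger gene Jazf1 (chr6:53049476-53049896). Fold enrichment in the CTX libraries was 8.22, 7.75 and 5.65 in Pde7b, and the Jazf1 array gave 10.1, 4.60 and 6.08. These calls rested on few reads, 11, 10 and 6 at the summit in Pde7b and 20, 7 and 8 in Jazf1. The lists give no value where no peak was called, so the PBS level is not known.

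The 2 regions called in 3 PBS and 0 CTX libraries held neither array. They lay in the promoter window of Gm11474 (chr2:167534556-167534933), with fold enrichments of 3.24, 6.63 and 3.49, and in an intron of Gm16531 (chr10:22418595-22419027), with 3.06, 3.29 and 4.51. Both counts of group-specific regions depended on single libraries. Where 1 library was left out, a group of 2 libraries needed 2 calls. The CTX class then numbered 14, 10, 14 and 21 without PBS replicate 1 and CTX replicates 1, 2 and 3, and the PBS class 6, 14, 18 and 6 without PBS replicates 1, 2 and 3 and CTX replicate 2.

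Whether the signal itself differed was tested on the 105 members called in 6 libraries, within a limma fit over all 1131 such regions. On log2 fold enrichment, 0 members passed a Benjamini-Hochberg adjusted p of 0.05 in either direction, as did 0 of the 1131 regions (0.0%). At an unadjusted limma p under 0.05 there were 19 of the 105 members, 14 with a positive and 5 with a negative difference. Over all 1131 regions, members included, there were 72 at that level. The median difference in log2 fold enrichment, CTX minus PBS, was 0.13 over the members and 0.01 over all regions.

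Fold enrichment divides by a background taken from the same library around the peak, so the reads at the summit were also compared. The whole-number pileup was recovered from the deposited fold enrichment and p-value of each summit and divided by the library's depth, giving summit reads per 1000 reads per Mb. Its median per library, and the limma calls on it as a result of their own, were added after the data had been seen. Over the 105 members the median was 17.4, 18.9 and 15.1 in the PBS libraries and 27.2, 24.5 and 26.8 in the CTX libraries. Over the 1026 other regions it was 24.5, 25.4 and 28.2 with PBS and 20.9, 22.1 and 21.5 with CTX. The groups did not overlap in either set, and the sets moved in opposite directions, with a ratio of group means of 1.53 in the members and 0.825 in the other regions.

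**Figure D2:**
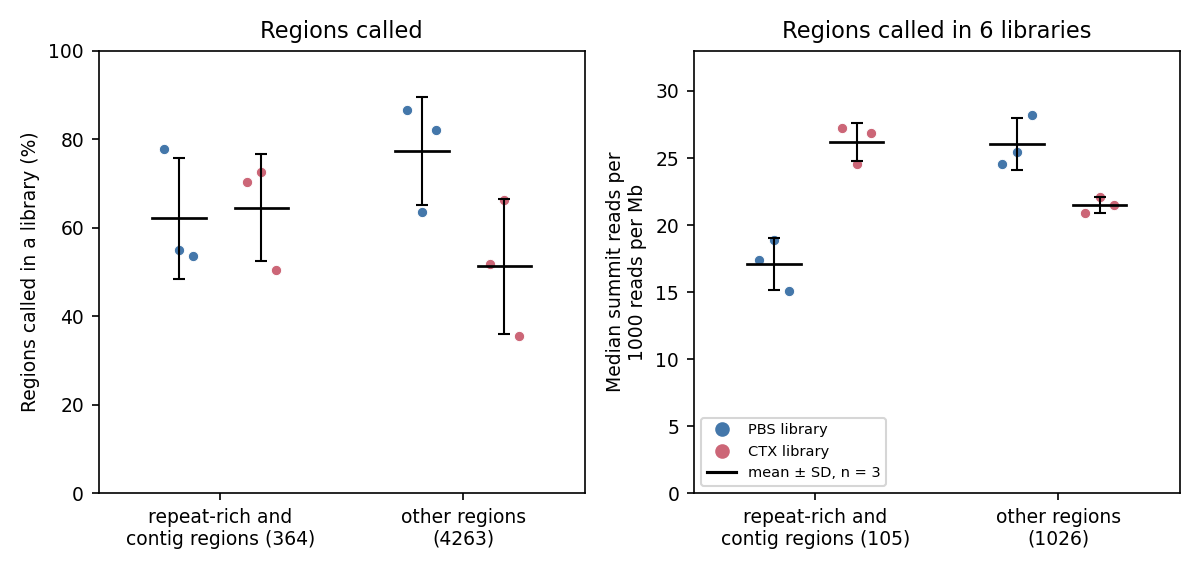
Left, the percent of the 364 repeat-rich and contig regions and of the 4263 other regions called in each library, and right, the median summit reads per 1000 reads per Mb over the 105 and 1026 regions called in 6 libraries. Points are libraries and bars are means ± SD (n = 3). At right the CTX points of the repeat-rich and contig regions lie above their PBS points, and the CTX points of the other regions lie below theirs.

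Region by region, limma on the log2 scaled pileup called 32 of the 105 members (30.5%) as higher with CTX at an adjusted p of 0.05 and 0 as lower. Over all 1130 regions tested, 35 (3.1%) were called as higher and 15 (1.33%) as lower, so that 32 of the 35 higher regions were members. Of the regions called in 6 libraries, 1 had no recovered pileup and was left out. The scaled pileup of every CTX library was above that of every PBS library in 51 members (48.6%), where the rate over all regions was 5.93%. It was below in 1 member (0.952%), where the rate over all regions was 34.1%. The mean was higher with CTX in 91 members, where the rate over all regions was 16.9%. The median log2 difference was 0.55 in the members and -0.26 over all regions.

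How firmly the 32 calls stood depended on single libraries. Without PBS replicate 3, CTX replicate 1 and CTX replicate 3 there were 9, 10 and 15 calls, all of them higher with CTX. Over all 1130 regions these fits called 10, 12 and 16 as higher and 3, 4 and 3 as lower. The fits without PBS replicates 1 and 2 and CTX replicate 2 called 40, 25 and 24 members as higher. Over all regions they called 48, 30 and 26 as higher and 47, 12 and 12 as lower. When each library was centred on the median of its other regions, 47 members were called as higher. Over all regions the centred fit called 59 as higher and 3 as lower.

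The values by kind of repeat are given without a test because the kinds were drawn up after the data had been seen. In the satellite family all 26 regions called in 6 libraries had a higher mean scaled pileup with CTX, 24 of them without overlap between the groups, and limma called 16 as higher. Over all regions these rates were 16.9%, 5.93% and 3.1%. Their median was 21.2, 21.5 and 15.1 with PBS and 35.9, 35.9 and 40.2 with CTX, a ratio of means of 1.94. Of the 36 regions of the family, 0 were called in more PBS than CTX libraries and 9 in more CTX than PBS libraries. Over all members these shares were 20.9% and 24.7%, and over the other regions 52.3% and 5.63%. The share of the family called was 85.2 ± 3.21% (SD, n = 3) with PBS and 95.4 ± 1.60% (SD, n = 3) with CTX.

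The local background moved with the summits in several kinds. Over all members called in 6 libraries, its scaled median was 1.32 ± 0.203 (SD, n = 3) with PBS and 1.98 ± 0.0879 (SD, n = 3) with CTX. It was 0.777 and 1.10 in hexamer regions, 1.29 and 1.79 in pentamer regions, 1.19 and 2.04 in longer tandem repeats and 0.702 and 1.47 on contigs without sequence, without overlap between the groups in each. Other kinds differed. In other soft-masked sequence it was 0.649 and 0.778 and in the 5S cluster 7.67 and 6.83, without overlap, while the summits overlapped. In other short tandem repeats it was 0.429 and 0.505 and overlapped, while the summits did not. In the satellite regions, scaled by depth in the same way, it had a median of 3.94, 3.61 and 2.38 in the PBS libraries and 6.68, 5.58 and 8.45 in the CTX libraries. Median fold enrichment was 8.63, 6.34 and 6.97 with PBS and 8.17, 8.61 and 7.22 with CTX, and the groups overlapped. In the other regions the scaled background was 6.20 ± 0.362 (SD, n = 3) with PBS and 4.93 ± 0.0947 (SD, n = 3) with CTX.

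The satellite regions with the most reads were singled out after their values had been seen. A pair on chromosome 2 stood far above the rest, and at chr2:98666175-98667401 the scaled pileup was 1036, 1095 and 850 with PBS and 1441, 1362 and 1864 with CTX. The groups did not overlap, but its limma adjusted p was 0.0512, and its fold enrichment overlapped. In the chromosome 9 cluster, chr9:3023963-3024744 had 266, 204 and 186 with PBS and 381, 315 and 380 with CTX (limma adjusted p = 0.0428). The shown unit came from chr9:3015203-3015459, which rose by 1.28 ± 0.168 (SE) on the log2 scale (limma adjusted p = 0.00335). No list of high-signal regions to exclude was applied here.

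Telomere-hexamer regions also had more summit reads with CTX. Over the 23 regions called in 6 libraries the median scaled pileup was 22.5, 23.3 and 21.9 with PBS and 40.5, 34.98 and 26.8 with CTX, a ratio of means of 1.51. All 23 had a higher mean with CTX, 8 of them without overlap between the groups, and limma called 3, beside rates over all regions of 16.9%, 5.93% and 3.1%. The array in an intron of Ppp1r9a (chr6:4923737-4924273), a gene for an actin-binding scaffold, was among these, with 12.8, 6.54 and 10.03 for PBS and 38.4, 27.6 and 20.6 for CTX. Its log2 difference was 1.57 ± 0.264 (SE, limma adjusted p = 0.00646), while its limma adjusted p on fold enrichment was 0.255. The end of chromosome 12 was at the other extreme, with 71.0, 85.1 and 79.0 for PBS and 74.7, 89.0 and 72.4 for CTX (limma adjusted p on scaled pileup = 0.986).

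The chromosome ends and the internal arrays can be set side by side. At the 8 end regions called in 6 libraries the median scaled pileup was 36.2 ± 4.35 (SD, n = 3) with PBS and 48.6 ± 2.97 (SD, n = 3) with CTX. At the 15 internal ones it was 16.5 ± 2.72 (SD, n = 3) with PBS and 27.7 ± 8.07 (SD, n = 3) with CTX. The libraries of the groups did not overlap in either place.

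**Figure D3:**
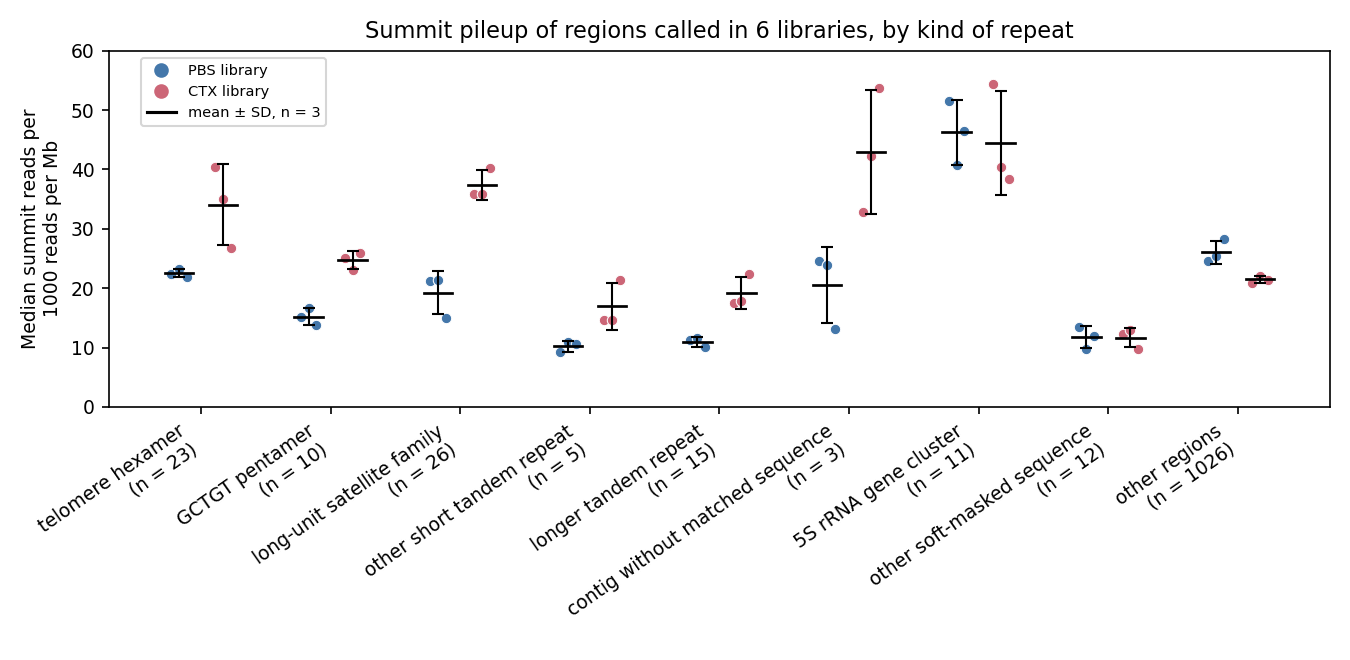
Median summit reads per 1000 reads per Mb in each library, by kind of repeat, over the regions called in 6 libraries (number of regions in parentheses). Points are libraries and bars are means ± SD (n = 3). CTX points lie above PBS points in the hexamer, pentamer, satellite, short tandem, longer tandem and contig kinds, and the groups overlap in the 5S cluster and in other soft-masked sequence.

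Pentamer and other tandem arrays gave the same order. The 10 pentamer regions called in 6 libraries had a median of 15.1, 16.7 and 13.8 with PBS and 25.1, 23.0 and 25.9 with CTX, and limma called 3 of them as higher. Over all members tested limma called 30.5% as higher, and over all regions 3.1%. For tandem repeats of longer period, the 15 regions gave 11.2, 11.6 and 10.03 with PBS and 17.4, 17.8 and 22.4 with CTX, and 4 were called as higher. The one in Mid1 (chrX:169993361-169994992), an E3 ubiquitin ligase gene, had 11.2, 11.6 and 8.78 with PBS and 24.4, 24.5 and 31.3 with CTX. Its log2 difference was 1.34 ± 0.177 (SE, limma adjusted p = 0.00335), while its limma adjusted p on fold enrichment was 0.223. The short repeat in the pseudogene Vmn1r-ps47 (chr7:10284905-10285170) had the lowest p of all members on fold enrichment, 9.34, 11.9 and 8.34 against 15.9, 14.7 and 15.4, yet its limma adjusted p there was 0.223.

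The 5S cluster and the other soft-masked sequence did not share this order. In the 5S cluster the median scaled pileup over 11 regions was 51.6, 40.7 and 46.4 with PBS and 54.4, 40.5 and 38.5 with CTX, and limma called 0 regions. Over the 12 regions of other soft-masked sequence it was 13.5, 9.82 and 11.9 with PBS and 12.2, 12.9 and 9.84 with CTX. Here limma called 1 as higher, beside 3.1% of all regions. Of the 98 regions of this last kind, 44 were called in more PBS than CTX libraries and 13 in more CTX than PBS libraries, while among all other regions these counts were 2231 and 240 of 4263. Differences between kinds were not tested.

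**Figure D4:**
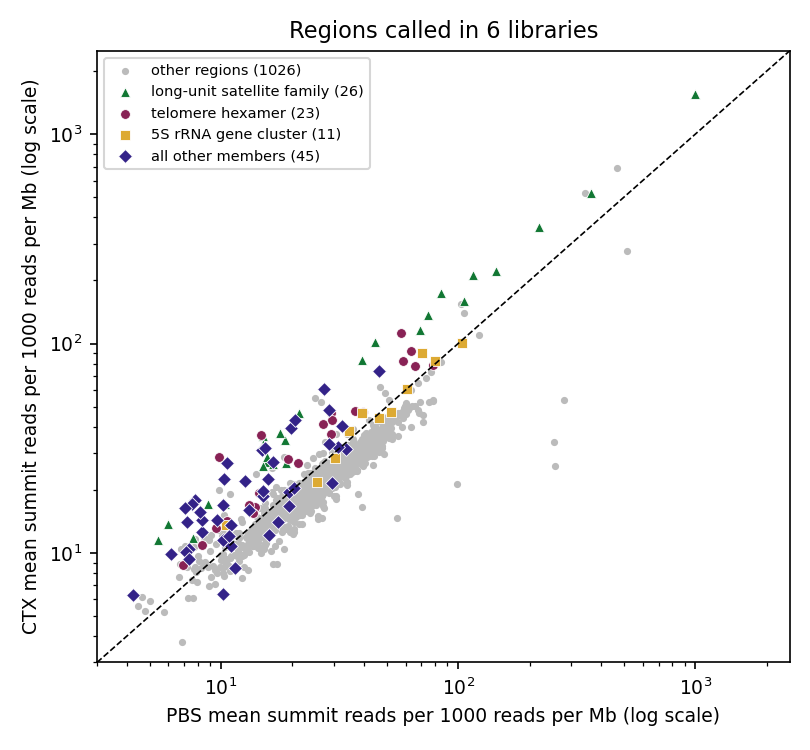
Mean summit reads per 1000 reads per Mb of the PBS libraries (x, log scale) and of the CTX libraries (y, log scale) for each region called in 6 libraries. The 26 satellite and 23 telomere-hexamer regions lie above the dashed line of equality, the 11 regions of the 5S cluster lie close to it, and most of the other regions lie below it.

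By number of genomic copies, the median log2 difference in scaled pileup was 0.55 over the 33 members whose median 31-base word was single-copy, 0.58 over the 31 with 2 to 9 copies and 0.52 over the 38 with 10 or more. Limma called 11, 11 and 7 of these as higher, beside 30.5% of all members tested and 3.1% of all regions.

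On contigs, 9 members were called in 6 libraries, 5 of them on JH584304 and 1 each on GL456389, GL456390, GL456392 and GL456216. The one on GL456389 (chrUn_GL456389:10459-10886) had a scaled pileup of 24.5, 24.0 and 13.2 with PBS and 32.8, 42.3 and 53.7 with CTX (limma adjusted p = 0.0365), and the one on GL456392 (chrUn_GL456392:21975-23482) had 36.8, 28.4 and 16.3 with PBS and 59.3, 52.2 and 70.7 with CTX (limma adjusted p = 0.0198). Both rose with CTX and their groups did not overlap. The satellite region on GL456216 (chr4_GL456216_random:49068-49420) rose from 6.13, 5.09 and 5.02 to 12.6, 10.4 and 11.6 (limma adjusted p = 0.00359, and 0.255 on fold enrichment). The one on GL456390 (chrUn_GL456390:19374-19652) rose by 0.94 ± 0.222 (SE) on the log2 scale (limma adjusted p = 0.0387). Of the 5 satellite regions of JH584304, those starting at 72973 and 68845 rose (limma adjusted p = 0.00624 and 0.0472), while those starting at 79177, 103196 and 112900 had an adjusted p of 0.0599, 0.0698 and 0.159.

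On chromosome Y, the region at chrY:90811585-90813306 was called in 6 libraries, with a scaled pileup of 9.20, 10.9 and 10.7 for PBS and 24.4, 19.6 and 23.3 for CTX (limma adjusted p = 0.00359), and 74.9% of its 31-base words were single-copy in GRCm38. The animals were female, so these values are not taken as a signal of chromosome Y itself. Where the reads came from, including related X sequence, was not tested.

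Regions with nearly the same soft-masked share lay on either side of the rule's boundary. Just inside were regions with 50%, 50.2% and 50.6% soft-masked bases and mean fold enrichments of 3.89, 2.69 and 3.07, in an intron of Gm16531, near Lmx1a and in the promoter window of Gm14875. Just outside were regions with 49.9%, 49.9% and 49.8% and mean fold enrichments of 4.35, 5.31 and 7.41, in the promoter window of Dcc, near Atg7 and in an intron of Ms4a5. On chromosomes, 26 regions had 50% to 55% soft-masked bases and 39 had 45% to 50%.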

How the data were processed

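GCs from PBS and CTX mice (3 libraries each, 6 h) were profiled by H3K27me3 CUT&Tag. The authors aligned reads to mm10 with BWA, kept uniquely mapped reads, removed duplicates and called peaks in each library with MACS2 2.1.0 at a q-value of 0.05. The deposited lists hold a fold ratio (column 7), -log10 p- and q-values, and a display score, which was not used. Coordinates matched GRCm38, which is mm10, and GENCODE M21 gave genes. Soft-masked bases came from RefSeq's GRCm38 sequence. Contigs were matched through identical exon coordinates. Promoters were within 2000 bp of a start.

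Fold ratio and p-value were solved for whole pileups (99.98% to 100.0% of summits), and depth came from the commonest background. Tests were the exact permutation test, two-sided, and limma 3.58.1 (R 4.3.3). Limma was checked on simulated log2 fold enrichment, but not on simulated scaled pileup. P-values measure the spread between pooled samples. Named regions were those with the highest mean fold enrichment, group-specific calls, lowest limma p, most-called contigs, highest tandem identity, the threshold neighbours and clusters of 3 or more. The members, lists and rules were chosen with earlier results of these data known. Alternatives covered q-value, peak number, joining, coverage, masking, library number, scaling and left-out libraries. Sequences of the telomere-hexamer arrays are not reported here.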

Additional observations from a re-analysis of the deposited data

How the results depend on the processing

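Of 172 recomputed values over 12 results, 141 kept their direction or stayed within 1.5 times. The difference in percent called against other regions, the share of peaks and both summaries of scaled pileup kept their direction throughout, although the groups no longer separated in the share of peaks with equal peak numbers (1.22 points, exact permutation p = 0.2). Leaving out 1 library gave 21.7 to 33.9 points for the first, 1.28 to 1.79 points for the second, and 0.47 to 0.65 and 0.69 to 0.95 (log2) for the scaled pileup alone and against other regions.

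The number of members was 197 at a q-value of at most 1e-05, 225 with 75% or more soft-masked bases and 233 when called in at least 3 libraries (300 to 346 without 1 library). Members called in 3 PBS and 0 CTX libraries numbered 1 at a q-value of at most 0.01, 0 at 1e-05, 0 with equal peak numbers and 1 with 75% soft-masked (2 to 18 without 1 library). Those called in 3 CTX and 0 PBS libraries numbered 2 at 1e-05 and 1 with 75% soft-masked (6 to 21 without 1 library).

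The difference in members called reversed when a library was left out: -2.0 without PBS replicate 2, -5.33 without PBS replicate 3, -2.17 without CTX replicate 1 and -6.5 without CTX replicate 2 (range -6.5 to 36.5). The difference in median width reversed to 12.8 bp at 1e-05, 1.33 bp with 50% coverage and 5.0 bp with 75% soft-masked, and to 2.75 and 3.92 bp without PBS replicate 1 and CTX replicate 2 (range -11.8 to 3.92). That in median fold enrichment reversed to -0.151 with equal peak numbers (0.405 to 0.701 without 1 library), while the groups separated (exact permutation p = 0.1) at 1e-05 (0.768), with peaks joined within 1000 bp (0.450), with 50% coverage (0.633), with masking required on contigs (0.501) and in at least 3 libraries (0.513). The cause was not tested.

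With scaled pileup in place of fold enrichment, limma called 32 members instead of 0, and 9 to 40 without 1 library. Same-numbered PBS and CTX libraries correlated at 0.0839, -0.124 and -0.0303 in their deviations, and differently numbered ones at -0.0998 to 0.140. No pairing by number was seen, but these values cannot exclude it. With the replicate block the per-library differences are the same (28.5 and 1.58 points, 8.67 regions, -1.67 bp, 0.425, and 0.62 and 0.90 in log2 scaled pileup), limma on fold enrichment called 0 members, and on scaled pileup it called 29 as higher and 1 as lower, where the fit without it called 0 as lower. Over all 1130 regions the block fit on scaled pileup called 32 as higher and 14 as lower. Calls resting on under about 20 summit reads, in libraries of 1118 to 1957 reads per Mb, limit what a missing call can show.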

Other observations

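Repeat-rich or contig regions called in 1 library numbered 300, 157 and 147 in the PBS libraries and 348, 351 and 248 in the CTX libraries, and no test was run on them. All merged peaks numbered 6378, 4244 and 5325 in the PBS libraries and 4280, 4993 and 2916 in the CTX libraries. Counts per library over all regions called in 1 library are not reported here. By chromosome, members were most numerous on X (34), 8 (31), 9 (28) and 6 (25).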
